A study of Homo sapiens with 65 samples.

Results

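SOX17, an SRY-box transcription factor, is used in human embryonic stem cell cultures to follow definitive endoderm, and it is also a transcription factor of arterial and blood-forming endothelium. The data described here set endoderm of day 7 against SOX17-positive endothelium of day 7, both made from the same H9 embryonic stem cell line. The groups were taken from the sample titles, 3 libraries of unsorted day 7 endoderm and 4 libraries of day 7 cells sorted as SOX17-positive, CD34-positive and CD43-negative, so 7 of the 65 libraries of the series. Both groups are WT in the sense of the labels, that is without the RUNX1 deletion used elsewhere in the series. Both carry the same reporter alleles, labelled SOX17 mCHERRY/w RUNX1C GFP/w, so that 1 allele of each gene holds a fluorescent reporter.

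Endoderm cells received activin A (100 ng/ul as labelled) throughout, with the GSK3 inhibitor CHIR (2 uM) and the PI3 kinase inhibitor PI-103 (50 nM) on the first day and the BMP receptor inhibitor DMH-1 (1 uM) afterwards. Endothelium came from the mesoderm protocol, first with BMP4 (20 ng/ml), activin A (7.5 ng/ml), VEGF (25 ng/ml), SCF and FGF2 (10 ng/ml), in part with the activin receptor inhibitor SB431542 (3 uM) and CHIR (3 uM), and then with VEGF, SCF, FGF2 and IGF2 (25 ng/ml). Undifferentiated cells of day 0 were also used, 3 libraries from the endoderm protocol and 4 from the mesoderm protocol. Total RNA was sequenced from TruSeq libraries and counted per gene. The 7 day 7 libraries held 15603647 to 19081031 counts. Whether libraries of a group came from separate cultures is not labelled. Each p-value here reflects library-to-library spread, which may be technical. The protocol, the sort and the range of library numbers all coincide with the groups, and their parts in any difference cannot be told apart.

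Definitive endoderm arises from cells that receive strong Nodal or activin signals, becomes an epithelium and goes on to form the gut tube, liver and pancreas. It is known for forkhead factors of the FOXA group, GATA4, GATA6 and EOMES, and for secreted Nodal inhibitors. Embryonic endothelium arises from mesoderm under VEGF signals, depends on ETS family factors such as ERG and FLI1, and is joined by VE-cadherin. SOX17 acts in both, with FOXA and GATA partners in endoderm and alongside Notch in arterial endothelium.

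Levels are given as CPM, counts scaled to the same library size with TMM factors, and differences as log2 fold change of endoderm over endothelium with the standard error. A gene is called higher or lower at a Benjamini-Hochberg adjusted p under 0.05 by edgeR's quasi-likelihood test over 21165 genes. Of these genes 7472 were higher in endoderm, which is 35.3% of all genes tested, and 7674 were lower, which is 36.3%. With a difference of at least 8-fold as well, 1657 genes (7.83%) were higher in endoderm and 1603 (7.57%) lower. The median log2 fold change over all genes tested was -0.04. Scaling by library totals alone moved it to -0.29 and the calls to 5926 higher and 9720 lower. The direction of differences below about that size can therefore depend on the scaling. Calls of somewhat larger differences can be lost as well, as given below for SOX17, PROX1 and SMAD6. With a background this large, a call for a single gene says little about that gene's place among the rest, and the size of the difference carries the description. Every count of list members below is to be read against the same shares, 35.3% higher and 36.3% lower.

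SOX17 transcripts were abundant in both lineages. Endoderm libraries had 229, 233 and 226 CPM, against 160, 162, 144 and 213 CPM in endothelium libraries. The groups did not overlap, which held for 70.8% of all genes tested, and endoderm was higher by 0.43 ± 0.12 on the log2 scale (adjusted p = 0.00754). Scaled by library totals alone, the difference was 0.18 and was not called (adjusted p = 0.199). The groups then overlapped, at 205 to 209 CPM in endoderm libraries and 154 to 230 CPM in endothelium libraries. SOX17 was part of the gate on the endothelium, so its presence there is a check of the sort. On the authors' length-scaled values, log2 of RPKM plus 1, SOX17 averaged 6.67 ± 0.02 in endoderm (SD, n = 3) and 6.24 ± 0.25 in endothelium (SD, n = 4). The other members of its subgroup, SOX7 and SOX18, which are endothelial factors, averaged 0.21 and 0.70 in endoderm, against 6.50 and 4.84 in endothelium on that scale. Endoderm held SOX17 with little SOX7 or SOX18, whereas endothelium held all of them.

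The markers of both lineages separated the groups. FOXA2, a forkhead factor of endoderm, had 176, 214 and 143 CPM in endoderm libraries and no count in any endothelium library, at least 4300-fold higher against a floor of 3 counts over the group. CER1, a secreted inhibitor of Nodal, BMP and Wnt ligands, had 13746, 16565 and 13815 CPM in endoderm libraries, against 0.235, 0.0579, 0.151 and 0 CPM in endothelium libraries. FLI1, an ETS factor of endothelium and blood, had no count in any endoderm library, against 449, 450, 442 and 486 CPM in endothelium libraries, at least 7410-fold lower. PECAM1, the endothelial adhesion molecule CD31, had 0.117, 0.117 and 0.069 CPM in endoderm libraries, against 683, 770, 736 and 863 CPM in endothelium libraries. In every library the other lineage's pair of markers was at 0 or a trace. The submitters describe the day 7 endoderm culture as almost wholly positive for SOX17, EPCAM, CXCR4 and KIT. EPCAM averaged 490 ± 36.7 CPM in endoderm (SD, n = 3) and 3.69 ± 0.401 CPM in endothelium (SD, n = 4). KIT averaged 683 ± 33.3 CPM in endoderm and 98.1 ± 11.8 CPM in endothelium, and CXCR4 1298 ± 101 CPM in endoderm and 64.7 ± 45.8 CPM in endothelium. The gate gene CD34 averaged 11.4 ± 1.75 CPM in endoderm and 1129 ± 93.5 CPM in endothelium. SPN, which encodes CD43 and was gated against, averaged 0.136 ± 0.122 CPM in endoderm and 1.8 ± 0.308 CPM in endothelium.

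**Figure D1:**
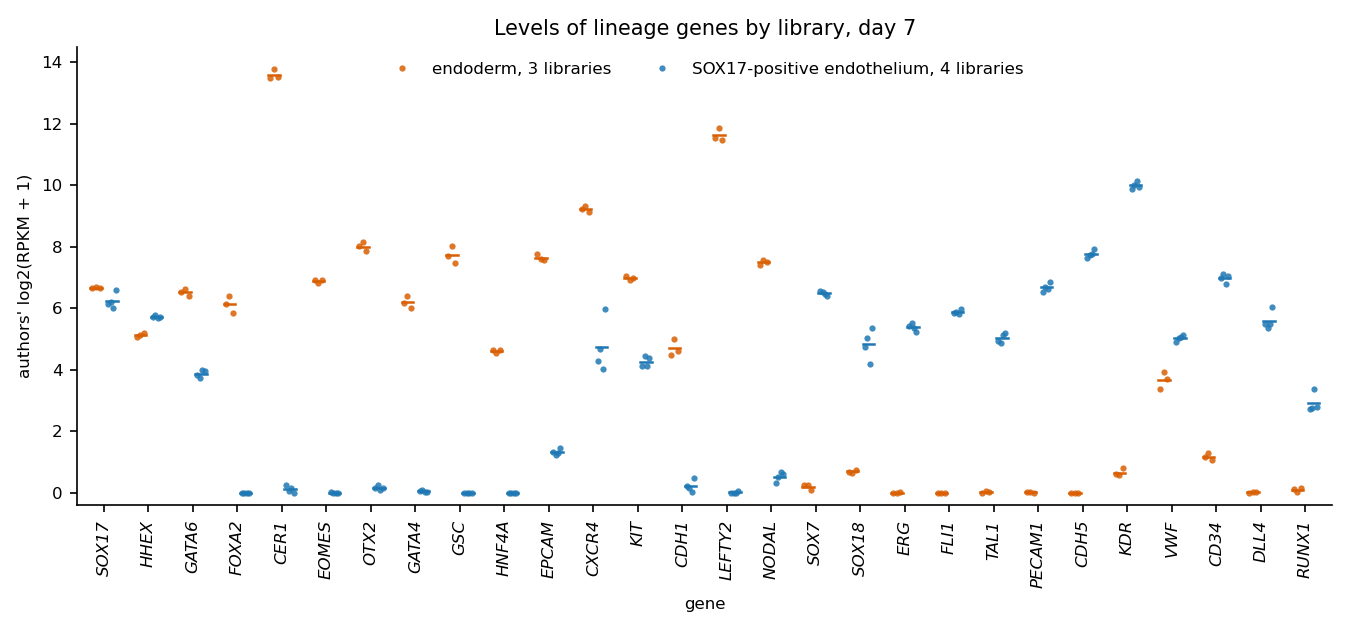
Levels of lineage genes in each of the 7 libraries, as the authors' log2 of RPKM plus 1, with endoderm libraries in orange left of endothelium libraries in blue for each gene. SOX17 and HHEX stand well above 0 in both groups, while FOXA2, GSC and HNF4A lie at 0 in endothelium and FLI1 at 0 in endoderm.

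Sequence in front of some lineage genes is shown, for genes that at day 7 were high in 1 lineage or present in both. The RefSeq windows (GRCh38.p14) run from 250 bases before to 50 bases after the gene start, and capitals mark matches to AGGAAG, a core of ETS sites, or to AACAAT, a core of SOX sites, on either strand. CER1 stands for endoderm (chr9:14722684-14722983, minus strand), HHEX for the genes of both lineages (chr10:92689705-92690004, plus strand), and EMCN (chr4:100517973-100518272, minus strand) and PLVAP (chr19:17377293-17377592, minus strand) for endothelium.
CER1: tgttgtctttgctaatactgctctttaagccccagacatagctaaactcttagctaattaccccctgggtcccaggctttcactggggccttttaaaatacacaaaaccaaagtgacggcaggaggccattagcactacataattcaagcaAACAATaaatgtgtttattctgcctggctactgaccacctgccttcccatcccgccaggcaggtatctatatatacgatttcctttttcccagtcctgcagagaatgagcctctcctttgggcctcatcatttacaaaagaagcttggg
HHEX: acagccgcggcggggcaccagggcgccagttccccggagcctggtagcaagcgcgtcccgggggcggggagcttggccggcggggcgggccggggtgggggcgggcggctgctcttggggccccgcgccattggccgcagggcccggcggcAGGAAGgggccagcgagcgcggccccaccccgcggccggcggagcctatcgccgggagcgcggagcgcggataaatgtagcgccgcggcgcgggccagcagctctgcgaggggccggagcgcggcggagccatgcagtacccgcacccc
EMCN: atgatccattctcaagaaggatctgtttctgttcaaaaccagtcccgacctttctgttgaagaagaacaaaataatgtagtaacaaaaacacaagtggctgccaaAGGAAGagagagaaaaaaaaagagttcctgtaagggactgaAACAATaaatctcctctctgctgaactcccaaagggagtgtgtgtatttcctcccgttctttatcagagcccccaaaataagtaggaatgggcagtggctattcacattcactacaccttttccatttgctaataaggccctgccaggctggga
PLVAP: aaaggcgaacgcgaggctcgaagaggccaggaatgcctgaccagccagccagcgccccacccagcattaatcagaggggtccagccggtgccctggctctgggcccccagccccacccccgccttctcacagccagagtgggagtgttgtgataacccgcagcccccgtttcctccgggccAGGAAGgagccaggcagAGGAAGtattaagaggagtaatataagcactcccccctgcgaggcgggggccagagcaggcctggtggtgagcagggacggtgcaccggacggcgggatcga

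The EMCN window held 1 match to each motif, the CER1 window 1 match to the SOX core, the HHEX window 1 match to the ETS core and the PLVAP window 2 matches to the ETS core. Over all tested genes with a window in the table, 12156 in number, 32.9% held the ETS core and 5.74% held the SOX core. The ETS core was present in 29.3% of the 876 windows of genes at least 8-fold higher in endoderm and in 42.1% of the 914 windows of genes at least 8-fold lower. The SOX core was present in 7.19% of the windows of the higher genes and in 9.74% of those of the lower genes. A GATA core, AGATAA, and a forkhead core, TGTTTAC, were also searched, and the printed windows held neither. The GATA core was in 8.9% of the windows of the higher genes, 9.52% of those of the lower genes and 5.67% of all. For the forkhead core these shares were 2.85%, 3.17% and 2.39%, in the same order. The ETS core was in 10 of 16 windows of the endothelial surface and junction genes and in 6 of 14 of the endothelial transcription factors. It was in 4 of 10 windows of the endoderm transcription factors and in 4 of 10 of the endoderm surface and secreted genes. These lists are small. These matches describe letters only and show no binding.

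Of 15 transcription factors of definitive endoderm, 14 were higher in endoderm and HHEX was lower, where 35.3% of all genes tested were higher. SOX17, a gate gene of the endothelium, was among the 14, and its call was lost under scaling by library totals. The median log2 fold change over the list was 8.00, against -0.04 over all genes tested. EOMES, a T-box factor at the head of the endoderm programme, had 431, 399 and 424 CPM in endoderm libraries and a single count among all endothelium libraries, a 30000-fold ratio with a 95% counting interval of 5380 to 1180000. OTX2, a homeobox factor of anterior endoderm and brain, averaged 821 ± 88 CPM in endoderm and 0.41 ± 0.165 CPM in endothelium (10.96 ± 0.19, adjusted p = 1.08e-12). GATA4, a zinc finger partner of FOXA factors, was higher by 10.83 ± 0.21. LHX1, a homeobox factor of early endoderm, was higher by 8.00 ± 0.24. GSC and HNF4A, an organiser homeobox factor and a nuclear receptor of liver and gut, had no count in endothelium and were at least 6390-fold and at least 4010-fold higher. PRDM1, a transcriptional repressor, was closer between the groups (1.51 ± 0.12).

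HHEX, a homeobox factor of both liver bud and early vessels, stood on the endoderm and the endothelial list. It had 80.8, 83.4 and 86.8 CPM in endoderm libraries, against 126, 131, 123 and 125 CPM in endothelium libraries. The groups were apart without overlap, but by -0.59 ± 0.08 only (adjusted p = 3.87e-05). GATA6, the other GATA factor of endoderm, was present in both lineages as well, at 351 ± 28.8 CPM in endoderm and 52.4 ± 4.87 CPM in endothelium (2.74 ± 0.11). Of the further GATA factors, GATA2, a factor of endothelium and blood progenitors, was lower in endoderm (-9.01 ± 0.27), and GATA3 averaged 35.3 ± 5.67 CPM in endoderm and 90 ± 4.57 CPM in endothelium (-1.35 ± 0.12). The GATA cofactor ZFPM2 was lower in endoderm (-3.56 ± 0.21). In all 3 of 7 GATA family genes and cofactors tested were higher in endoderm and 4 lower.

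Members of the SOX and FOX families were found on both sides. Of 13 SOX genes tested 5 were higher in endoderm and 6 lower, with a median of -0.27. Over all genes tested the shares were similar, at 35.3% higher and 36.3% lower. SOX21, a SOXB factor, had 58.2 ± 7.01 CPM in endoderm and a single count in endothelium, a 4150-fold ratio with a 95% counting interval of 745 to 164000. SOX10, a neural crest factor, averaged 18.9 ± 1.61 CPM in endoderm and 0.878 ± 0.74 CPM in endothelium (4.43 ± 0.39). SOX13, SOX5 and SOX4 were lower in endoderm (-2.00 ± 0.11, -2.46 ± 0.17 and -1.32 ± 0.11), and SOX12 averaged 113 ± 11.2 CPM in endoderm and 121 ± 8.08 CPM in endothelium (adjusted p = 0.41, and 0.00624 under library totals). Of 17 FOX genes tested 9 were higher and 8 lower. FOXQ1, a forkhead factor of epithelia, had no count in endothelium and 294 ± 29.9 CPM in endoderm, at least 7000-fold higher. FOXC2 and FOXF1, forkhead factors of mesoderm and vessels, were lower in endoderm (-7.41 ± 0.56 and -6.47 ± 0.26), FOXC2 at -8.71 without endoderm library 3.

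Of 16 surface and secreted genes of endoderm 15 were higher in endoderm, with a median of 7.12. FZD5, a Wnt receptor, averaged 7767 ± 758 CPM in endoderm and 5.48 ± 0.863 CPM in endothelium (10.47 ± 0.19). SEMA3E, a semaphorin, and CYP26A1, an enzyme that breaks down retinoic acid, were higher by 11.81 ± 0.31 and 11.19 ± 0.19. LGR5, the R-spondin receptor, FGF17 and STC1, a secreted glycoprotein, were higher by 9.65 ± 0.17, 9.57 ± 0.24 and 7.19 ± 0.16. PRTG, an immunoglobulin superfamily member, was lower in endoderm, at 1.06 ± 0.411 CPM in endoderm and 978 ± 211 CPM in endothelium (-9.85 ± 0.29).

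Genes of later liver and gut regions were mixed, and 8 of 19 were too low to test, among them ALB, AFP, TTR and PDX1. Of the 11 tested, 7 were higher and 3 lower in endoderm. APOE and APOC1, apolipoproteins, were higher by 4.44 ± 0.13 and 2.97 ± 0.15, and APOA1 by 7.25 ± 0.31. APOA2 was 1800-fold higher (95% counting interval 497 to 14900), and VTN, vitronectin, was higher by 5.50 ± 0.29. APOB and TF, which encodes transferrin, were lower in endoderm (-3.22 ± 0.45 and -5.17 ± 0.31), APOB at -4.53 without endoderm library 3. CDX2, a hindgut factor that posterior mesoderm also uses, had no count in endoderm and 1.82 ± 0.737 CPM in endothelium, at least 29-fold lower.

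Of 20 endothelial transcription factors tested, 18 were lower in endoderm, against 36.3% of all genes tested, and none was higher. The median of the list was -4.47. ERG, an ETS factor that maintains endothelial identity, averaged 0.0655 ± 0.0693 CPM in endoderm and 299 ± 24.4 CPM in endothelium, a 4850-fold ratio with a 95% counting interval of 1660 to 23500. TAL1, a basic helix-loop-helix factor of blood and vessels, was lower in endoderm (-10.65 ± 0.29), and so were its partner LMO2 (-8.72 ± 0.17) and MEF2C (-7.14 ± 0.31). TAL1 was at -10.05 without endoderm library 1 and at -12.14 without endoderm library 2, and MEF2C at -7.74 without endoderm library 3. Several ETS relatives were present in both. ETS2 averaged 130 ± 21 CPM in endoderm and 162 ± 23.1 CPM in endothelium, and its libraries overlapped (-0.32 ± 0.14, adjusted p = 0.0487). That call was lost under 8 of 14 alternatives, with an adjusted p up to 0.237. ETS1 averaged 53.5 ± 15.8 CPM in endoderm and 916 ± 50.8 CPM in endothelium, and ELK3 69.9 ± 9.03 CPM in endoderm and 362 ± 27.7 CPM in endothelium, both called lower in endoderm. ETV2, the ETS factor that starts the endothelial programme, was at 0.777 ± 0.285 CPM in endoderm and 0.747 ± 0.296 CPM in endothelium (adjusted p = 0.92).

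All 23 endothelial surface and junction genes were lower in endoderm, 21 of them by at least 8-fold, with a median of -9.57. CDH5, VE-cadherin, had 0.0583, 0 and 0 CPM in endoderm libraries, against 1152, 1225, 1259 and 1383 CPM in endothelium libraries. KDR, the main VEGF receptor, had 3.21, 2.98 and 4.49 CPM in endoderm libraries, against 5719, 6205, 6937 and 5935 CPM in endothelium libraries. PLVAP, the diaphragm protein of fenestrated vessels, was lower in endoderm (-12.44 ± 0.25). MMRN1, the secreted protein multimerin, had no count in endoderm and was at least 3020-fold lower. VWF, the clotting factor stored by endothelium, was well above 0 in both groups, with 95, 144 and 121 CPM in endoderm libraries, against 293, 320, 328 and 338 CPM in endothelium libraries (-1.42 ± 0.13). MCAM, the adhesion molecule CD146, was also shared, at 33.3 ± 6.49 CPM in endoderm and 107 ± 28.2 CPM in endothelium (-1.68 ± 0.19).

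**Figure D2:**
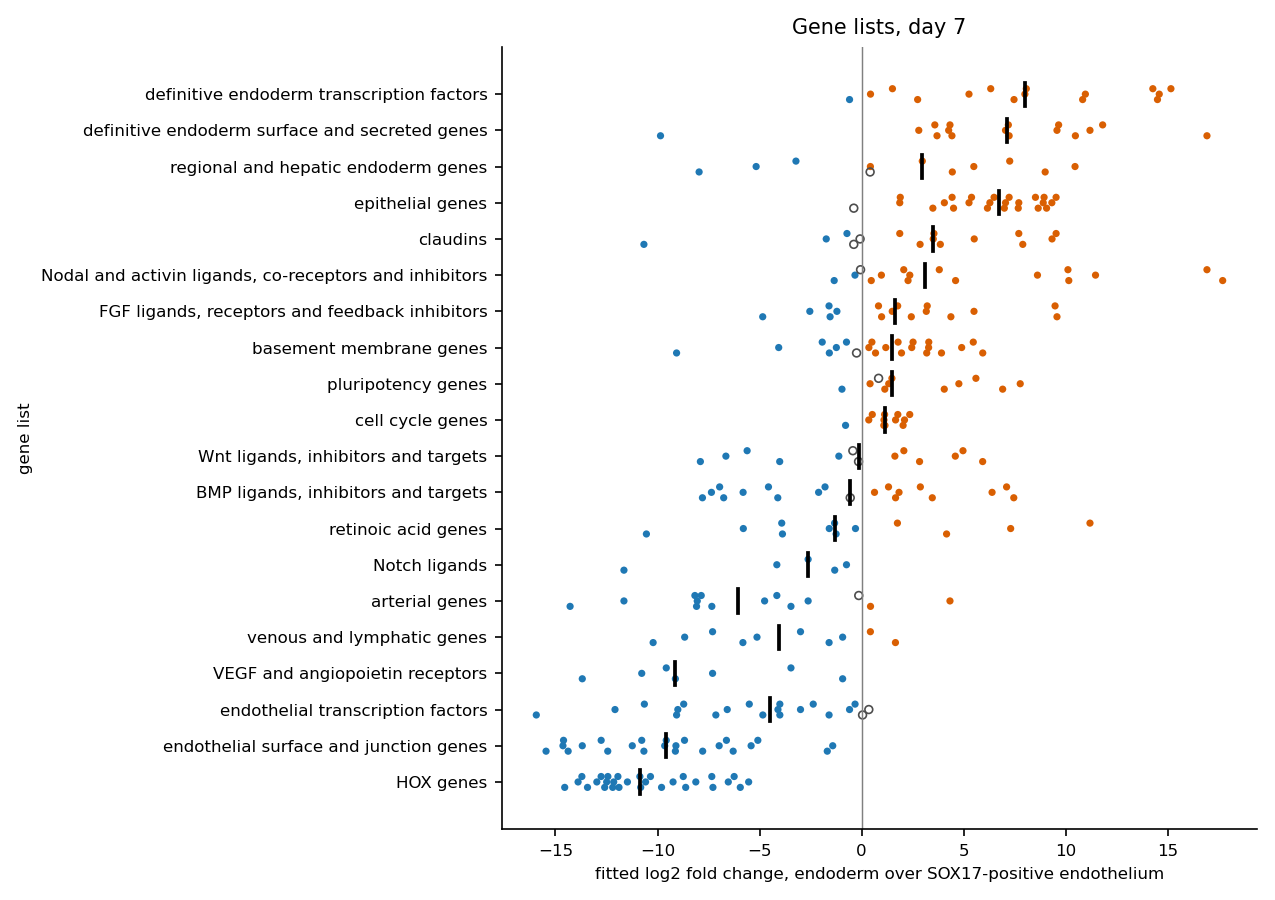
Log2 fold change of endoderm over endothelium for each tested member of 20 gene lists, with filled points where the adjusted p was under 0.05, open points otherwise and a black bar at the list's median. Points to the right of 0 are higher in endoderm, and the HOX and endothelial lists lie to the left while the epithelial and endoderm lists lie to the right.

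Of 14 arterial genes tested 11 were lower in endoderm, while SOX17 and CXCR4 were higher. SOX17 was part of the gate, and its call was lost under scaling by library totals. DLL4, a Notch ligand, had 0, 0.117 and 0.069 CPM in endoderm libraries, against 202, 181, 203 and 296 CPM in endothelium libraries. GJA5, the connexin of arteries, had no count in endoderm libraries, against 115, 109, 103 and 252 CPM in endothelium libraries. EFNB2, the ephrin of arteries, GJA4, another connexin, and HEY2, a Notch target, were lower in endoderm (-8.17 ± 0.42, -8.05 ± 0.40 and -7.86 ± 0.40). Without endoderm library 3 EFNB2 was at -8.90 and HEY2 at -9.01, and without endoderm library 2 GJA4 was at -8.94. Library 4 held the highest level of the endothelium libraries for every arterial gene named here, that is SOX17, DLL4, GJA5, EFNB2, GJA4, HEY2, CXCR4 and UNC5B. UNC5B, a netrin receptor, had 229, 221 and 203 CPM in endoderm libraries, against 220, 227, 153 and 360 CPM in endothelium libraries, and the groups overlapped (adjusted p = 0.571). CXCR4, a chemokine receptor of arteries and of endoderm, had 1303, 1397 and 1195 CPM in endoderm libraries, against 40.4, 52.4, 33.6 and 132 CPM in endothelium libraries (4.33 ± 0.39, and 4.94 without endothelium library 4).

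Venous and lymphatic genes were lower in 8 of 10 cases. APLNR, the apelin receptor, FLT4, the VEGF-C receptor, and STAB1, a scavenger receptor, were lower in endoderm (-10.22 ± 0.32, -7.30 ± 0.16 and -5.82 ± 0.11). NR2F2, the venous nuclear receptor, averaged 13.2 ± 1.26 CPM in endoderm and 105 ± 24 CPM in endothelium. PROX1, a homeobox factor of both liver and lymphatic vessels, was called higher, at 20.3 ± 1.89 CPM in endoderm and 15.1 ± 2.02 CPM in endothelium (0.43 ± 0.13, adjusted p = 0.0127). The call was lost under scaling by library totals (0.18, adjusted p = 0.239) and without endoderm library 1 (0.36, adjusted p = 0.0665).

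Of 7 VEGF and angiopoietin ligands 3 were higher in endoderm and 2 lower, while all 7 of their receptors were lower, with a median of -9.13. Over all genes tested 35.3% were higher and 36.3% lower. VEGFA had 268, 410 and 268 CPM in endoderm libraries, against 15.2, 10.2, 10 and 12.4 CPM in endothelium libraries (4.72 ± 0.19). ANGPT2, an angiopoietin ligand, had 92, 95.8 and 111 CPM in endoderm libraries, against 2.7, 2.72, 2.67 and 5.33 CPM in endothelium libraries (4.89 ± 0.20). ANGPT1 was lower in endoderm (-5.90 ± 0.43, and -5.29 without endoderm library 2), and VEGFC averaged 2.82 ± 1.14 CPM in endoderm and 5.64 ± 5.39 CPM in endothelium (adjusted p = 0.136, and 0.000265 without a filter on low counts). Among the receptors, TEK, which binds angiopoietins, averaged 1.19 ± 0.348 CPM in endoderm and 660 ± 65.1 CPM in endothelium (-9.13 ± 0.19). NRP2, a co-receptor of semaphorins and VEGF, differed less, at 674 ± 68.8 CPM in endoderm and 1286 ± 162 CPM in endothelium (-0.93 ± 0.13).

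In the Notch pathway all 5 ligands were lower in endoderm. Beside DLL4, JAG1 averaged 13.2 ± 4.64 CPM in endoderm and 234 ± 57.6 CPM in endothelium (-4.16 ± 0.26), and JAG2 was lower (-2.62 ± 0.15). The receptors split. NOTCH4 and NOTCH1 were lower in endoderm (-8.09 ± 0.18 and -4.75 ± 0.14), NOTCH3 was higher (0.98 ± 0.11), and NOTCH2 averaged 128 ± 10.8 CPM in endoderm and 126 ± 12 CPM in endothelium (0.03 ± 0.10, adjusted p = 0.82). Of the 6 targets tested, 4 were lower in endoderm, HEY1 and NRARP among them (-7.34 ± 0.34 and -6.43 ± 0.36, HEY1 at -7.97 without endoderm library 3), and HES4 was higher (1.38 ± 0.26).

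Of 16 Nodal pathway genes tested 13 were higher in endoderm, with a median of 3.08. NODAL itself had 282, 315 and 294 CPM in endoderm libraries, against 0.412, 0.695, 1.01 and 0.85 CPM in endothelium libraries (8.61 ± 0.17). LEFTY2, a Nodal inhibitor, had 6996, 8705 and 6569 CPM in endoderm libraries, and 2 counts in all among endothelium libraries. LEFTY1, a close copy of LEFTY2 with which it may share reads, was higher by 11.46 ± 0.21. The co-receptor TDGF1 and the activin antagonist FST were higher by 10.15 ± 0.26 and 10.11 ± 0.23, and FOXH1, the forkhead partner of SMAD2, by 4.60 ± 0.20. GDF1, which shares a transcript with CERS1, and the receptor ACVR2B were lower in endoderm (-1.35 ± 0.21 and -0.33 ± 0.10), and SMAD4 averaged 107 ± 12.3 CPM in endoderm and 111 ± 12.7 CPM in endothelium (adjusted p = 0.686). Under library totals SMAD4 was called lower (-0.30, adjusted p = 0.0347), and without endoderm library 3 ACVR2B was not called (-0.26, adjusted p = 0.0509). The endoderm medium held activin A, which acts through the same receptors, throughout. The mesoderm medium held activin A at first, and in part the activin receptor inhibitor SB431542. Whether the media had a part in these Nodal pathway differences was not tested.

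Of 19 BMP pathway genes tested 9 were higher and 9 lower in endoderm. All genes tested were also evenly divided, at 35.3% higher and 36.3% lower. BMP2, a ligand, averaged 422 ± 112 CPM in endoderm and 3.08 ± 0.62 CPM in endothelium (7.10 ± 0.21), and the inhibitor NOG was higher by 7.45 ± 0.35. BMP4 averaged 7.35 ± 2.2 CPM in endoderm and 31.9 ± 5.67 CPM in endothelium (-2.11 ± 0.21). The target ID1 had 0.525, 0.409 and 1.66 CPM in endoderm libraries, against 88.2, 94.9, 109 and 123 CPM in endothelium libraries. ID3, MSX1 and BAMBI, further targets, were lower in endoderm (-7.80 ± 0.19, -7.36 ± 0.33 and -6.76 ± 0.30), while SMAD6 and SMAD7, inhibitory SMADs, were higher (0.63 ± 0.20 and 1.32 ± 0.14). The SMAD6 call was lost under library totals (0.38, adjusted p = 0.102) and without endoderm library 2 (0.44, adjusted p = 0.0639). Without endothelium library 4 NOG was higher by 8.19, without endoderm library 3 ID1 was at -7.77, and without endoderm library 1 or 2 MSX1 was at -8.24 or -6.76. The endoderm medium held the BMP receptor inhibitor DMH-1 after the first day, and the mesoderm medium held BMP4 at first. The part of the media in these BMP pathway differences was not tested.

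Of 13 Wnt pathway genes tested 6 were higher in endoderm and 5 lower, where 35.3% of all genes tested were higher and 36.3% lower. The Wnt inhibitors SFRP1 and FRZB were higher in endoderm (4.59 ± 0.12 and 5.93 ± 0.27), and DKK1, another, was lower (-6.65 ± 0.49). LEF1, a nuclear Wnt effector, averaged 0.251 ± 0.0863 CPM in endoderm and 60.7 ± 7.99 CPM in endothelium (-7.90 ± 0.23), whereas TCF7 and AXIN2 were higher in endoderm (2.07 ± 0.18 and 1.63 ± 0.13). Of 16 FGF pathway genes tested 11 were higher and 5 lower. FGF8 was 851-fold higher (95% counting interval 291 to 4130), and the receptors FGFR3 and FGFR4 were higher by 5.50 ± 0.20 and 4.37 ± 0.16. FGFR1 and the ligand FGF2 were lower in endoderm (-2.54 ± 0.11 and -4.85 ± 0.19).

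Of 12 retinoic acid genes tested 4 were higher in endoderm and 8 lower. CYP26A1 had 799, 786 and 610 CPM in endoderm libraries, against 0.353, 0.405, 0.252 and 0.227 CPM in endothelium libraries. ALDH1A2, which makes retinoic acid, had 0, 0.0585 and 0.138 CPM in endoderm libraries, against 96.4, 130, 84.2 and 101 CPM in endothelium libraries. ALDH1A3, a related enzyme, was higher in endoderm, at 9.94 ± 0.957 CPM in endoderm and 0.0556 ± 0.0464 CPM in endothelium (7.30 ± 0.34). The retinoic acid binding protein CRABP2 was higher (4.16 ± 0.23), and the receptor RARG and STRA6, which takes up retinol, were lower in endoderm (-3.92 ± 0.16 and -3.88 ± 0.26).

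HOX genes encode transcription factors that mark position along the body axis. Of 39 genes 29 were tested, and all 29 were lower in endoderm by at least 8-fold, a difference that 7.57% of all genes tested showed in this direction. The 3 endoderm libraries together held 30 counts over the whole list, and 29 of the 39 genes had none. No HOX gene could thus pass the minimum count of 10 through endoderm, and the 29 were tested through their endothelium counts alone. Their direction was fixed by that filter, so the count of 29 beside 7.57% is no test of it. The summed level was 0.276 to 0.875 CPM in endoderm libraries, against 1381 to 1757 CPM in endothelium libraries. HOXB9 had 0.0583, 0 and 0 CPM in endoderm libraries, against 413, 389, 450 and 440 CPM in endothelium libraries. HOXB3 averaged 0.0584 ± 0.0583 CPM in endoderm and 271 ± 42 CPM in endothelium, and HOXA9 had no count in endoderm and 174 ± 26 CPM in endothelium, at least 2840-fold lower. HOXA13, the last gene of the HOXA cluster, had no count in endoderm and 58.5 ± 14.4 CPM in endothelium. On the authors' log2 of RPKM plus 1, HOXB9 averaged 7.42 ± 0.09 and HOXA9 5.91 ± 0.21 in endothelium (SD, n = 4), and both 0.01 or less in endoderm. No tested gene of the HOXC or HOXD cluster averaged above the 2.08 ± 0.27 of HOXC6 in endothelium on that scale. With fold changes against empty groups set to their bounds, the median of the list was -8.40.

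**Figure D3:**
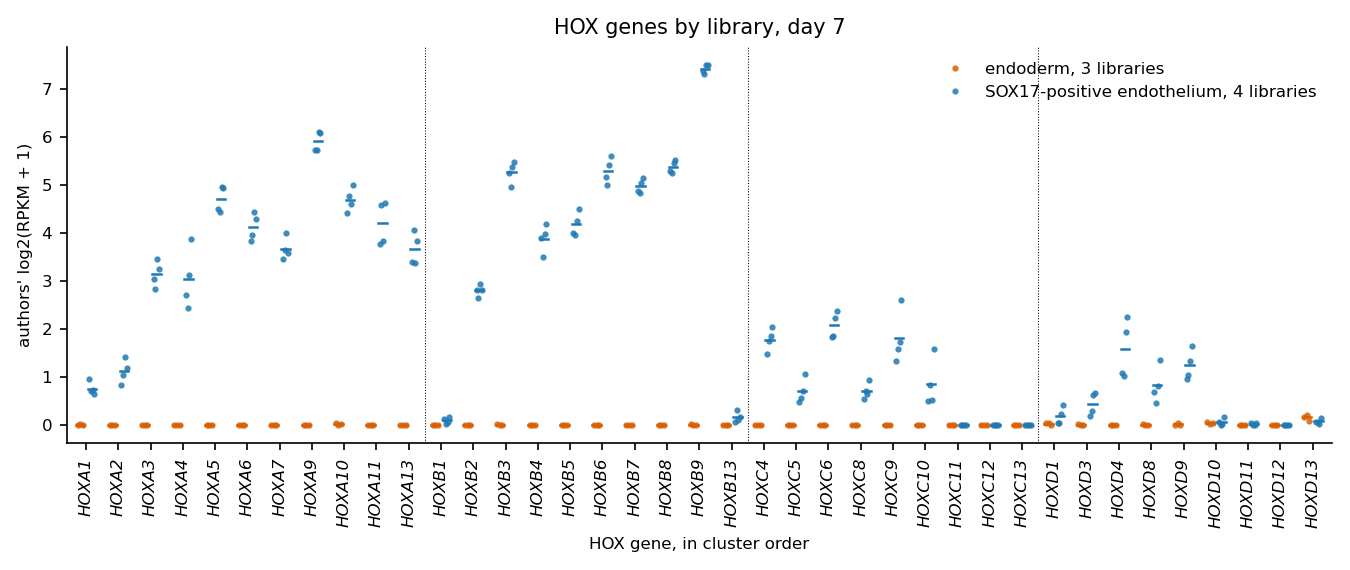
The authors' log2 of RPKM plus 1 of each of the 39 HOX genes in endoderm libraries (orange, left within each gene) and endothelium libraries (blue), in cluster order. HOXB9 at 7.42 and HOXA9 at 5.91 stand highest in endothelium, while endoderm points lie on or near 0 for every gene.

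Epithelial genes were higher in endoderm in 23 of 24 cases, 21 of them by at least 8-fold, with a median of 6.74. CDH1, E-cadherin, had 130, 186 and 139 CPM in endoderm libraries, against 1.06, 0.637, 0.101 and 2.32 CPM in endothelium libraries (7.23 ± 0.38, and 8.02 without endothelium library 4). CLDN6, a tight junction claudin of early embryos, and ESRP1, an epithelial splicing regulator, were higher by 9.53 ± 0.22 and 9.32 ± 0.18. CLDN4 averaged 1.84 ± 0.608 CPM in endoderm and 2.42 ± 0.613 CPM in endothelium (adjusted p = 0.245). Of all 15 claudins tested 10 were higher in endoderm and 3 lower, and of 13 cadherins 7 were higher and 6 lower. CLDN5, the endothelial claudin, was 1820-fold lower in endoderm (95% counting interval 623 to 8830), and CDH11 and CDH13 were lower (-9.25 ± 0.29 and -7.25 ± 0.16), CDH11 at -8.64 without endoderm library 2 and at -9.92 without endoderm library 3. The zinc finger factors ZEB2 and ZEB1, repressors of epithelial genes, were lower in endoderm (-8.89 ± 0.22 and -4.51 ± 0.17), among 8 genes of the epithelial to mesenchymal switch of which 4 were lower and 2 higher. Yet N-cadherin (CDH2) and fibronectin (FN1), often counted as mesenchymal, were higher in endoderm (3.59 ± 0.12 and 3.38 ± 0.18). FN1 reached 9402, 13681 and 11853 CPM in endoderm libraries, against 916, 1421, 1030 and 1120 CPM in endothelium libraries.

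Basement membrane genes were higher in endoderm in 15 of 22 cases and lower in 6. COL4A3 and COL4A4, collagen IV chains, were higher by 5.93 ± 0.21 and 4.90 ± 0.14, and LAMA1, a laminin chain, by 3.91 ± 0.15. NID2 and NID1, the nidogens, were lower in endoderm (-9.07 ± 0.19 and -4.06 ± 0.14). Of 17 Eph receptors and ephrins tested 6 were higher in endoderm and 10 lower. The ephrin EFNA5 was higher in endoderm (5.87 ± 0.16), and EFNA1 was lower (-8.61 ± 0.27). Of 7 chemokine genes and receptors tested 4 were higher and 2 lower. CXCL14 was higher in endoderm (7.86 ± 0.34), CXCL5 lower (-7.42 ± 0.55), and ACKR3, a receptor that takes up CXCL12, was higher (2.84 ± 0.12).

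Blood-related factors were lower in endoderm in 9 of 10 cases. RUNX1, which starts blood formation from endothelium, had 1.52, 0.292 and 1.73 CPM in endoderm libraries, against 84.4, 85.7, 144 and 88.8 CPM in endothelium libraries (-6.44 ± 0.36, adjusted p = 9.28e-09). MYB and MECOM, factors of blood progenitors, were lower in endoderm (-5.41 ± 0.20 and -4.52 ± 0.26). CBFB, the partner of RUNX1, was higher (0.64 ± 0.14). Pluripotency genes were higher in endoderm in 9 of 11 cases, among them ZFP42 (5.60 ± 0.21) and L1TD1 (4.76 ± 0.25). The core factor POU5F1 had 1.98, 0.936 and 4.42 CPM in endoderm libraries, against 0, 0.116, 0.252 and 0.17 CPM in endothelium libraries, and it was higher by 4.05 ± 0.65, or by 3.33 without endoderm library 3. In the day 0 cells L1TD1 averaged 1254 CPM in the endoderm protocol and 1125 CPM in the mesoderm protocol. POU5F1 averaged 301 and 370 CPM there, in the same order. L1TD1 and POU5F1 were lower at day 7 than at day 0 in each lineage. NANOG and SOX2 were too low to test. LIN28B was lower in endoderm (-0.96 ± 0.13).

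Outside the lists, the genes of largest difference included several that overlap another gene. LINC00261, a long non-coding RNA next to FOXA2, averaged 379 ± 31.5 CPM in endoderm without a count in endothelium, at least 9080-fold higher. AL121722.1, which overlaps FOXA2 and part of LINC00261, had 386 ± 32.1 CPM in endoderm, and AL117348.1 overlaps LEFTY2, so some of their reads may belong to a neighbour. NPPB, a natriuretic peptide, and ZIC2 and LMX1A, transcription factors, had no count in endothelium and were at least 5250-fold, at least 3820-fold and at least 2720-fold higher. CST1, a cystatin, was 21700-fold higher (95% counting interval 5990 to 179000), and CCKBR, a gastrin receptor, 19400-fold (5370 to 160000). MYL7, a myosin light chain of the atrium, was 18700-fold higher (3360 to 740000). In the other direction, ADGRF5, an adhesion receptor, LAPTM5, a lysosomal protein of blood cells, GIMAP4, a GTPase, and HOPX, a homeodomain protein, had no count in endoderm. In this order they were at least 2570-fold, at least 1890-fold, at least 1820-fold and at least 1410-fold lower. F2RL2, a thrombin receptor inside IQGAP2, averaged 0.0813 ± 0.0881 CPM in endoderm and 722 ± 83.6 CPM in endothelium (-12.98 ± 0.29, and -14.17 without endoderm library 1). LINC00458 on the higher side and GIMAP5, FLJ34503 and CXorf36 on the lower side completed the list, while AC142391.1 overlaps ECSCR and AC004080.3 overlaps HOXA9.

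**Figure D4:**
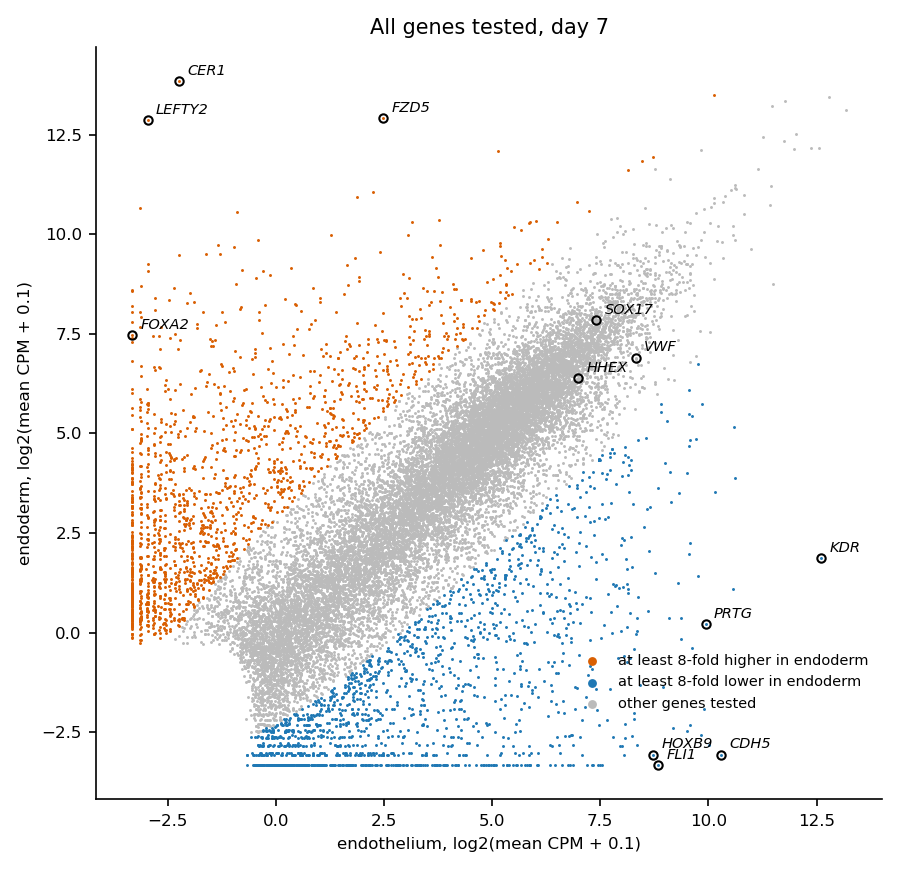
Mean log2 of CPM plus 0.1 in endoderm (vertical) against endothelium (horizontal) for the 21165 genes tested, with genes at least 8-fold apart coloured by side and named genes marked. SOX17, HHEX and VWF lie near the diagonal, while FOXA2, CER1 and LEFTY2 lie at the upper left and FLI1, CDH5 and KDR at the lower right.

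Markers of other cell types were measured in the same libraries. Of the mesenchyme markers 5 of 9 tested were higher and 3 lower in endoderm, with summed levels of 1073 to 1713 CPM in endoderm libraries and 466 to 760 CPM in endothelium libraries. TAGLN, PDGFRA, COL1A1 and LUM were higher in endoderm (7.17 ± 0.26, 4.80 ± 0.15, 4.55 ± 0.35 and 4.92 ± 0.44), whereas COL3A1 had 0.233, 0.117 and 0 CPM in endoderm libraries, against 129, 350, 147 and 176 CPM in endothelium libraries (-10.59 ± 0.60, and -11.47 without endoderm library 1). Neural markers summed to 349 to 438 CPM in endoderm libraries and 9.58 to 20 CPM in endothelium libraries. TUBB3 held most of it, PAX6 averaged 20.6 ± 6.52 CPM in endoderm and 0.914 ± 0.221 CPM in endothelium, and SOX1 was at 0 in both. Blood markers summed to 5.73 to 9.63 CPM in endoderm libraries and 4.41 to 7.71 CPM in endothelium libraries, with PTPRC at 0 in endoderm and at 1 count in endothelium. The streak markers TBXT and MESP1 were too low to test, and the whole streak and mesoderm list summed to 2.14 to 3.98 CPM in endoderm libraries and 35 to 46 CPM in endothelium libraries. Of 5 extraembryonic markers tested 1 was higher in endoderm and 4 lower, with sums of 34.7 to 47.5 CPM in endoderm libraries and 100 to 110 CPM in endothelium libraries. In bulk RNA, fewer cells of a type and less RNA per cell cannot be told apart, and the part of other cells in the differences above was not tested.

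Cell cycle and handling genes also differed. Of 12 cell cycle genes 11 were higher in endoderm, among them BUB1, PLK1 and AURKA (2.36 ± 0.10, 2.10 ± 0.15 and 2.03 ± 0.12), and MCM2 was lower (-0.79 ± 0.14). Of 11 immediate early and heat shock genes 7 were lower in the unsorted endoderm and 3 higher. FOS had 0.933, 1.99 and 1.17 CPM in endoderm libraries, against 65.6, 47.9, 225 and 24.9 CPM in endothelium libraries (-6.04 ± 0.82, and -5.07 without endothelium library 3). JUNB averaged 3.99 ± 0.498 CPM in endoderm and 63.5 ± 12.5 CPM in endothelium, and ATF3 was higher in endoderm (2.89 ± 0.16). Sorting, which the endothelium alone went through, cannot be told apart from lineage here, and its part was not tested.

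The day 0 cells of both protocols were then compared, since they are undifferentiated cells of the same line. The day 0 libraries of the endoderm protocol are numbered 31999 to 32006, next to day 7 endoderm at 32008 to 32010. Those of the mesoderm protocol are numbered 31264 to 31318, far from day 7 endothelium at 68685 to 68715. The day 0 comparison therefore does not span the number ranges of the day 7 comparison, and the endothelium gains from day 0 cross ranges while the endoderm gains do not. Of 22680 genes tested in a fit of 14 libraries, 202 differed between the endoderm protocol and the mesoderm protocol at day 0, which is 0.891%, and 5 (0.022%) did so by at least 8-fold. The count rested on single libraries, at 31, 68 and 22 genes without endoderm protocol day 0 library 1, 2 and 3, and at 836 and 44 genes without mesoderm protocol day 0 library 1 and 2. It was 101 without endoderm day 7 library 1 and 90, 120 and 128 without endothelium day 7 library 1, 2 and 3, and DESeq2 called 810 genes. In the same fit 62.2% of genes differed between day 7 and day 0 in endoderm and 75.8% in endothelium. Of the 431 list members tested at day 0, 10 differed, among them FLI1, TEK, COL3A1 and ZEB2. SOX17 had no count in the 3 day 0 libraries of the endoderm protocol and 1 count among the 4 of the mesoderm protocol.

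Genes that both lineages gained over day 0 were then listed, each lineage against the day 0 cells of its own protocol, and these 2 comparisons share no library. As the sources used here do not state whether counting used strand, reads of KLHL6, HLX, ADAMTS9, GATA6, WLS and MEIS2 cannot be told apart from those of genes that overlap them on the other strand. There were 488 such genes with at least 8-fold higher levels in both, 2.15% of the 22680 tested. They made up 34.3% of the 1424 genes so gained in endoderm (6.28% of those tested) and 25.7% of the 1899 gained in endothelium (8.37%). By the same rule 721 genes (3.18%) were lost in both. With empty day 0 groups set to their bound, 436 genes still passed 8-fold in both. A mean of at least 5 CPM in both day 7 groups was reached by 181 of the 488, so many shared gains were of low genes. On the authors' log2 of RPKM plus 1, where adding 1 makes the change of low genes smaller, 54 genes passed, 53 of them among the 488. Of the 488 genes, 380 differed between the day 7 groups, which is 77.9% and near the 71.6% of all genes tested there. Of these, 158 were higher in endoderm and 222 lower.

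SOX17 was among the shared gains, but the endothelium was sorted for it, so its gain there was set by the gate. It averaged 229 ± 1.81 CPM in endoderm of day 7, at least 3690-fold above the empty day 0 libraries, and 172 ± 30.8 CPM in endothelium of day 7, 10100-fold above day 0 (95% counting interval 1810 to 398000), on the scale of the 14 libraries. KLHL6, a ubiquitin ligase adaptor, had 93.9, 61.9 and 78.1 CPM in endoderm, against 84.6, 71.3, 81.9 and 82.4 CPM in endothelium, and at most 0.223 CPM in a day 0 library. RNASE1, a secreted ribonuclease, rose over day 0 by 10.74 ± 0.57 in endoderm and by 9.59 ± 0.44 in endothelium, and its day 7 libraries overlapped between lineages (adjusted p = 0.379, and 0.0104 without endoderm library 2). HHEX rose over day 0 by 7.87 ± 0.19 in endoderm and by 8.59 ± 0.17 in endothelium, and VWF by 8.75 ± 0.26 in endoderm and by 9.80 ± 0.22 in endothelium. HLX, a homeobox factor of gut mesenchyme and blood, rose by 7.40 ± 0.20 in endoderm and by 8.17 ± 0.20 in endothelium. WLS, which carries Wnt ligands to the cell surface, rose by 9.09 ± 0.26 in endoderm and by 7.56 ± 0.21 in endothelium. MEIS2, a homeobox cofactor, and ADAMTS9, a matrix protease, rose by 7.52 ± 0.30 and 6.94 ± 0.44 in endoderm and by 7.24 ± 0.24 and 7.65 ± 0.36 in endothelium. GATA6 rose by 8.53 ± 0.22 in endothelium and was 5670-fold above day 0 in endoderm (95% counting interval 1940 to 27500). Of the 431 list members tested in the fit of 14 libraries, 33 were among the shared gains, where 2.15% of all genes tested were. GATA3, PROX1, NR2F2, HSPG2, SMAD6 and ACKR3 were also among the 33. The lists were chosen with earlier results of these data known, so the 33 are a description only.

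**Figure D5:**
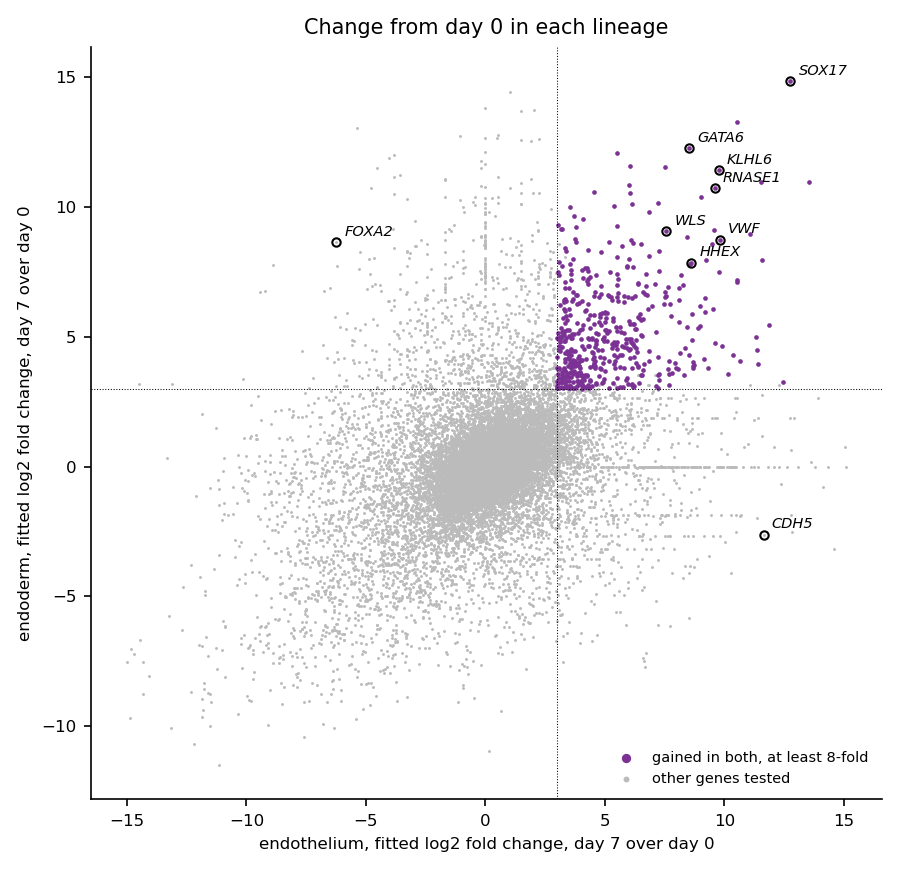
Log2 fold change from day 0 to day 7 in endoderm (vertical, 3 against 3 libraries) and in SOX17-positive endothelium (horizontal, 4 against 4 libraries) for the 22680 genes tested, with the 488 genes gained in both in purple. SOX17, KLHL6, RNASE1, VWF, GATA6, HHEX and WLS lie far out in both directions of gain.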

How the data were processed

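Fragment counts per gene, which the authors deposited without normalization, were used for 7 day 7 and 7 day 0 libraries of a 65-library series. The submitters' processing notes name cutadapt 1.18, featureCounts, R 3.2.2 and GRCh38, and no aligner is named there. The authors also deposited log2 values of RPKM plus 1, RPKM being scaled by TMM, per the file name. Both tables cover 58302 gene identifiers, of which 58039 were named from GENCODE 29.

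Day 7 groups were compared in edgeR 4.0.16 (R 4.3.3) with TMM factors, a minimum count of 10 by group, the quasi-likelihood test and Benjamini-Hochberg adjustment at 0.05. A fit of 14 libraries gave the changes from day 0. Alternatives used limma 3.58.1 on the log2 values, DESeq2 1.42.0, other scaling, no filter and libraries left out. CPM divides counts by the TMM-scaled library total. Folds against 0 counts are bounds from a floor of 3 counts over the group, and counting intervals (95%, exact) cover counting error only. The test was tested on simulated data.

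Members and the 37 gene lists were chosen with earlier results of these data known. Named genes were the lineage and gate genes, up to 6 members per list and direction by fold with at least 5 CPM, members that were not called or went against their list, the 10 outermost genes per direction outside the lists with at least 32 CPM, and the 10 strongest shared gains. Some further list members were named after their values were seen. A few genes that the rule names are not reported here. Pairs of libraries of a day 7 group differed by more than sampling noise (chi-square per gene of 9 to 24.2). Mitochondrial genes took 5.15 to 6.19% of counts in the day 7 libraries.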

Additional observations from a re-analysis of the deposited data

Results flagged for a closer look

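In 8 of 157 named genes with a mean of at least 1 CPM in endothelium, 1 of the 4 endothelium libraries stood far from the other 3 by Dixon's test, and chance flags about 1 group in 20. Library 4 held the outlying value for GJA5 at 252 CPM, ANGPT2 at 5.33 CPM, VEGFC at 13.7 CPM and APOB at 12.1 CPM. Library 3 held it for RUNX1 at 144 CPM, ACVR2B at 191 CPM, HOPX at 61.5 CPM and JAG2 at 93.3 CPM. The outlying value was the highest of the group for GJA5, ANGPT2, VEGFC, RUNX1 and ACVR2B, and the lowest for APOB, HOPX and JAG2. The causes were not tested.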

How the results depend on the processing

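The count of genes called between the day 7 groups was 3260 with the added requirement of an 8-fold difference, and 14207 to 15012 with 1 library left out. Calls among list members ran from 373 to 385, and among named genes from 187 to 191, with 1 library left out. Shared gains ran from 468 to 524 with 1 library left out, and were 54 on the authors' log2 values, which add 1 before taking the log. The day 0 count was 810 with DESeq2, 319 with limma on the log2 values and 648 without a filter on low counts, and 22 to 836 with 1 library left out, and the cause was not tested. Scaling by library totals moved the share of calls that were higher in endoderm to 37.9%, against 49.3%. Same-numbered day 7 libraries correlated at 0.120, 0.084 and 0.097 in their deviations, and differently numbered ones at -0.166 to 0.132. These weak values do not settle whether replicate numbers pair the libraries. With the replicate block 15423 genes were called between the day 7 groups, 378 list members, 190 named genes, 476 shared gains and 136 genes at day 0. Of 200 named genes tested under 14 alternatives, 190 kept their direction and call throughout, 6 lost a call somewhere, 4 gained one and none turned round. CXCL12 lost its call on the log2 values and without endoderm library 3 (adjusted p = 0.0689 and 0.09). The list medians of the Wnt genes (-0.15) and of the VEGF and angiopoietin ligands (-0.22), both near 0, changed sign under some alternatives. So did the median of the blood markers (0.76), which rests on 3 tested genes. Genes with few counts in either group are limited by depth to bounds or wide intervals.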
